A study of Rattus norvegicus with 22 samples.

Results

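The lungs of rats embolized with the larger of 2 microsphere doses were compared with those of vehicle-injected rats 18 h after injection. The members of the comparison were all arrays that the labels assign to 18-h Severe PE (4 male Sprague-Dawley rats) and to 18-h Vehicle (3 rats), which are 7 of the 22 arrays of the study, 1 array per rat. Severe PE rats received 2000000 polystyrene microspheres of 25 micron per 100 g of body weight in the right jugular vein, as 0.15 ml per 100 g of a 10% suspension in 0.01% Tween 20. Vehicle rats received 0.15 ml per 100 g of 0.01% Tween 20. By the sample records all rats weighed approximately 350 g, which is less than the methods of the study state. In every group the lungs were lavaged with 8 ml of saline before excision, so that leukocytes of the airspaces were partly removed. Total RNA of the right lung was hybridised to Affymetrix Rat Genome 230 2.0 arrays. Where the dose or the time was examined, the 18-h Mild PE group (1300000 microspheres per 100 g, 4 rats), the 2-h Severe PE group (4 rats) and the 2-h Vehicle group (3 rats) were used as well. Inert microspheres occlude pulmonary arteries without a clot, so the model holds the obstruction of vessels but not a thrombus.

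Embolism obstructs the pulmonary arteries, raises pressure upstream, leaves lung tissue with little flow, and draws leukocytes into the vessels. Injured lung is known for an acute phase response, in which interleukin-6 and related cytokines induce secreted proteins such as serum amyloid A and α1-acid glycoprotein, and for the release of chemokines that recruit monocytes and neutrophils. Cells that enlarge their secretory output raise the chaperones of the endoplasmic reticulum, a program known as the unfolded protein response.

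All values below are normalized log2 signals of 1 probeset per gene, and all differences are on the log2 scale, Severe PE minus Vehicle, with the standard error of limma's moderated fit. Changed genes are those with a p under 0.05 after Benjamini-Hochberg adjustment over 31042 probesets and group means at least 1.5-fold apart. The lowest possible value is 4, since signals under 16 were set to 16. The labelled tissue carried its defining markers: the surfactant protein C gene Sftpc read 14.38 to 14.84, Sftpb 14.47 to 14.68 and the club cell gene Scgb1a1 14.65 to 14.87 on all 7 arrays. Correlations over all probesets were 0.971 to 0.976 within Severe PE, 0.959 to 0.971 within Vehicle and 0.949 to 0.961 between the groups. On the first principal component (36.1% of the variance) the Severe PE rats lay between -46.6 and -35.3 and the Vehicle rats between 49.2 and 61.9. On the second component (18%) the Vehicle rats were spread widely to both sides of the Severe PE rats, which lay between -9.1 and 9.8. Vehicle rat 1 lay at -66.7 and the other Vehicle rats at 12.7 and 58. The β-actin signal of Vehicle rat 1 fell off most toward the 5′ end of the transcript, a sign of RNA quality (3′ minus 5′ of 1.52, against 0.95 to 1.04 in the Severe PE rats and 0.73 and 0.96 in the other Vehicle rats).

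Of 14217 genes, 1408 (9.9%) were changed 18 h after Severe PE, 610 higher (4.29%) and 798 lower (5.61%), and of all probesets 7.13% were changed, 3.21% higher and 3.91% lower. The 4 Severe PE and 3 Vehicle values did not overlap for any of the 1408, and groups did not overlap for 31.3% of all genes (14.5% higher and 16.7% lower). At least 2-fold changes were found for 303 genes that rose and 353 that fell, and at least 4-fold changes for 48 and 38. The median difference over all genes was -0.003. Without Vehicle rat 1 there were 812 changed genes (5.71%), 407 higher (2.86%) and 405 lower (2.85%), among them 682 of the 1408. Leaving out Vehicle rat 2 or 3 gave 746 or 715 changed genes, and leaving out Severe PE rat 2 or 3 gave 641 or 695. Differences in a whole lung extract cannot separate fewer cells of a type from less RNA per cell. Counts of changed members in the gene lists below stand against 9.9% of all genes, and some lists lay near that share.

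**Figure D1:**
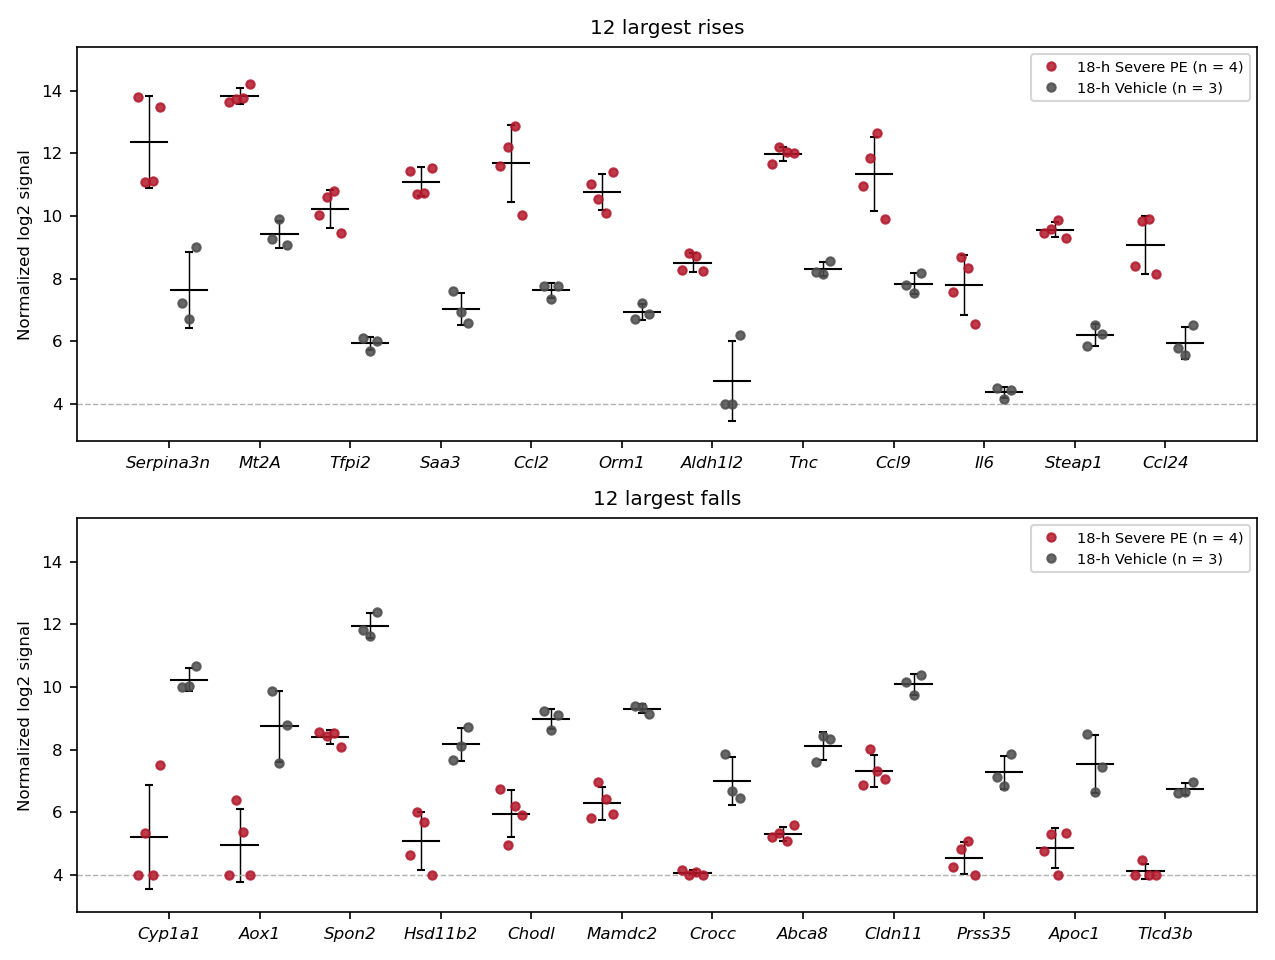
Normalized log2 signal of the 12 genes with the largest rise (upper panel) and the 12 with the largest fall (lower panel) in 18-h Severe PE rats (red, left of each pair, n = 4) and 18-h Vehicle rats (grey, right, n = 3). Points are rats, horizontal bars are means, error bars are 1 SD and the dashed line marks the lowest possible value of 4. Red and grey points do not overlap for any of these genes.

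Acute phase proteins, the secreted carriers and protease inhibitors of systemic inflammation, held several of the largest rises. Of the 19 measured members of a list of acute phase genes 9 rose and 1 fell, and their median difference was 1.24, against -0.003 over all genes. Serpina3n, a serine protease inhibitor, read 13.81, 11.09, 11.11 and 13.47 in the Severe PE rats, against 7.23, 6.70 and 9.02 in the Vehicle rats, a difference of 4.72 ± 0.97 (26.4-fold, adjusted p = 0.0396). Severe PE rats 1 and 4 stood more than 2 log2 units above rats 2 and 3. Saa3, a serum amyloid A protein made in many tissues, read 11.45, 10.69, 10.73 and 11.53 in Severe PE rats and 7.6, 6.92 and 6.57 in Vehicle rats (difference 4.07 ± 0.34, adjusted p = 0.00606). Orm1, α1-acid glycoprotein, read 11.01, 10.54, 10.10 and 11.42 in Severe PE rats and 6.72, 7.23 and 6.87 in Vehicle rats (difference 3.83 ± 0.34, adjusted p = 0.00691). In Saa3 and Orm1, as in Serpina3n, rats 1 and 4 were the higher Severe PE rats. A2m, the broad protease inhibitor α2-macroglobulin, showed the same order within the group, with 8.99, 7.53, 7.74 and 8.97 in Severe PE rats and 6.46, 6.15 and 6.04 in Vehicle rats (difference 2.09 ± 0.44, adjusted p = 0.0419). Lcn2, lipocalin-2, which binds bacterial siderophores, was nearly equal in all Severe PE rats (14.68 to 14.79), whereas Vehicle rat 1 (11.06) lay far under rats 2 and 3 (13.04 and 13). Itih4 (2.64), Il1rn (1.92), the fibrinogen chain gene Fgg (1.56) and the iron-regulating hormone gene Hamp (1.49) also rose. Serpina1, α1-antitrypsin, was the member that fell, with a difference of -1.76. Hp differed by 1.05, Hpx by 1.24, C3 by 0.55 and the fibrinogen genes Fga and Fgb by 0.29 and 0.27, none of which passed the test. With 1 rat left out 3 (without Severe PE rat 2) to 6 members of the list passed, and without Vehicle rat 1 Serpina3n had an adjusted p of 0.105.

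Metallothioneins bind zinc and copper and are induced through metal response elements in their promoters. Mt2A read 13.64, 13.74, 13.76 and 14.22 in Severe PE rats, against 9.27, 9.91 and 9.09 in Vehicle rats, a 21.3-fold difference (4.41 ± 0.24, adjusted p = 0.00336). Mt1 was far dimmer, with 7.18, 6.41, 6.41 and 6.86 in Severe PE rats and 5.80, 5.08 and 5.77 in Vehicle rats, and its difference of 1.17 ± 0.28 missed the threshold (adjusted p = 0.0561). The coding sequences of metallothioneins are alike, and probes of either gene could read the other. Mt3, a form best known from brain, differed by 0.10 ± 0.53. Sequence upstream of Mt2A and Mt1 is shown because the search for metal response elements (TGCACNC or TGCGCNC, either strand, 250 bases before the start) found 4 matches before Mt2A and 6 before Mt1, when 0.277% of 27457 rat promoters held 4 or more and 21.2% held any. RefSeq's promoters on GRCr8 covered 13 of the measured metal genes, and 7 of these held a match. The stretches run 5′ to 3′ on the gene's strand, with matches in capitals, at chr19:10838745-10838940 (minus strand, bases 232 to 37 before the start) for Mt2A and chr19:10833012-10833163 (minus strand, bases 188 to 37 before the start) for Mt1. A match is a description of letters, not of a bound site.
Mt2A: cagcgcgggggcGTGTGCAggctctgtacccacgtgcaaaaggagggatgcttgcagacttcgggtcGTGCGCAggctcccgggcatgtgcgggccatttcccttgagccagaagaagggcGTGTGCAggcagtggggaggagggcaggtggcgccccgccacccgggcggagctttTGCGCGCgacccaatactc
Mt1: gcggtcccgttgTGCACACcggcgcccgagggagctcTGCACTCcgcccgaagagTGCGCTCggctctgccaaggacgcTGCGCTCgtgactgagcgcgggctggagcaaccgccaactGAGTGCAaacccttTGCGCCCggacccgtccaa

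Besides Mt2A, some of the measured importers of metal rose. Slc39a8, a zinc and manganese importer, read 10.51, 10.55, 10.41 and 10.48 in Severe PE rats and 8.80, 8.46 and 8.21 in Vehicle rats (difference 2.00 ± 0.14, adjusted p = 0.00466). Its close relative Slc39a14, which also takes up iron, rose by 1.62 ± 0.17 (adjusted p = 0.00954), the transferrin receptor gene Tfrc by 1.43 ± 0.13 (adjusted p = 0.00729) and the divalent metal transporter gene Slc11a2 by 0.87 ± 0.13 (adjusted p = 0.0196). These 4 importers and Mt2A were the 5 changed members of a list of 14 measured metal genes, and 12 of the 14 had a positive difference (median 0.65). The importers Slc39a6 (0.68 ± 0.18, adjusted p = 0.0728), Slc39a10 (0.53 ± 0.13, adjusted p = 0.0581) and Slc31a1 (0.40 ± 0.13, adjusted p = 0.117) did not pass, nor did the exporters Slc30a1 (0.20) and Slc40a1 (-0.16). The heme oxygenase gene Hmox1, which releases iron from heme, read 11.48, 11.42, 11 and 11.12 in Severe PE rats and 8.90, 9.54 and 9.17 in Vehicle rats (difference 2.05 ± 0.19, adjusted p = 0.00786).

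Of 27 measured chemokines 6 rose after Severe PE and none fell. Ccl2, which recruits monocytes, read 11.59, 12.22, 12.89 and 10.02 in Severe PE rats and 7.75, 7.35 and 7.77 in Vehicle rats (difference 4.05 ± 0.68, adjusted p = 0.0245). Ccl9, a CC chemokine of rodents that was named for its size of rise and is not on the chemokine list, read 10.96, 11.85, 12.64 and 9.92 in Severe PE rats and 7.80, 7.53 and 8.19 in Vehicle rats (difference 3.50 ± 0.66, adjusted p = 0.0318). Il6, the main inducer of acute phase genes, read 7.57, 8.70, 8.35 and 6.56 in Severe PE rats and 4.51, 4.16 and 4.43 in Vehicle rats (difference 3.43 ± 0.53, adjusted p = 0.0201). Severe PE rat 4 had the lowest value of the group for all 3 genes, and rats 2 and 3 the highest, whereas rats 1 and 4 were the highest for Serpina3n, Saa3, Orm1 and A2m. Other acute phase genes had another order, since rat 1 was the lowest for Hp (10.37 against 11.63 to 11.82) and Lcn2 was nearly equal in all, and with 4 rats these orders are a description only. Ccl24, an eosinophil attractant, also had rats 2 and 3 highest, with 8.39, 9.83, 9.90 and 8.16 in Severe PE rats and 5.77, 5.56 and 6.53 in Vehicle rats (difference 3.11 ± 0.55, adjusted p = 0.028). The neutrophil attractants Cxcl2 (2.33 ± 0.23, adjusted p = 0.00843) and Cxcl1 (1.26 ± 0.25, adjusted p = 0.0359), Ccl3 (1.61 ± 0.22, adjusted p = 0.0155) and Cxcl9 (1.12 ± 0.24, adjusted p = 0.0452) were, with Ccl2 and Ccl24, the 6 rises of the list, whose median was 0.55. Ccl7 differed by 2.98 and Ccl22 by 2.02 without passing.

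Among 25 cytokines, receptors and inhibitors 6 rose and 1 fell (median 0.55). Tnf read 9.42, 9.19, 9.06 and 8.16 in Severe PE rats and 7.48, 7.41 and 7.6 in Vehicle rats (difference 1.46 ± 0.31, adjusted p = 0.0417). Osm, oncostatin M, a cytokine of the interleukin-6 family, rose by 1.40 ± 0.23 (adjusted p = 0.0226) and Socs3, the feedback inhibitor of its signal, by 1.21 ± 0.27 (adjusted p = 0.0464). Il1b differed by 0.66 ± 0.30, and Severe PE rat 4 (10.21) lay within the range of the Vehicle rats (10.18 to 10.51). Il33, an alarmin stored in the nuclei of lung cells, fell, with 10.51, 10.73, 10.52 and 9.86 in Severe PE rats and 11.50, 11.60 and 11.79 in Vehicle rats (difference -1.22 ± 0.22, adjusted p = 0.0285). Fits with 1 rat left out called 1 (without Vehicle rat 3) to 7 chemokines and 0 (without Vehicle rat 3 or Severe PE rat 3) to 6 members of the cytokine list, and without Vehicle rat 1 Ccl2, Il6 and Tnf did not pass. None of 21 interferon-stimulated antiviral genes was changed by limma or by the methods' t-test, and 3 had an unadjusted p under 0.05 by limma.

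Genes of coagulation and fibrinolysis included large rises in inhibitors as well as in the trigger of clotting. Tfpi2, an inhibitor of plasmin and of the tissue factor complex, read 10.04, 10.60, 10.80 and 9.47 in Severe PE rats and 6.09, 5.70 and 6 in Vehicle rats (19.7-fold, difference 4.30 ± 0.34, adjusted p = 0.00581). Tissue factor itself, F3, read 11.85, 12.39, 11.94 and 12.40 in Severe PE rats and 10.22, 10.01 and 10.21 in Vehicle rats (difference 2.00 ± 0.17, adjusted p = 0.00652). Plaur, the urokinase receptor, rose by 1.96 ± 0.16 (adjusted p = 0.00591), Procr, the endothelial receptor of protein C, by 1.87 ± 0.16 (adjusted p = 0.00686) and Plat, tissue plasminogen activator, by 1.15 ± 0.23 (adjusted p = 0.0377). Vwf, von Willebrand factor, fell by 0.70 ± 0.11 (adjusted p = 0.023). Of 24 measured members 5 rose and 1 fell (median 0.52), and the urokinase gene Plau differed by -0.86 ± 0.31 without passing. Among 17 complement genes C5 (1.37 ± 0.27, adjusted p = 0.0369), the inactivating protease Cfi (1.23 ± 0.11, adjusted p = 0.00673) and C1s (1.01 ± 0.14, adjusted p = 0.0159) rose and none fell.

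The extracellular matrix changed in 2 directions. Tnc, tenascin-C, a glycoprotein of injured tissue, read 11.66, 12.20, 12.04 and 12.01 in Severe PE rats and 8.21, 8.16 and 8.57 in Vehicle rats (difference 3.67 ± 0.16, adjusted p = 0.00224). Timp1, an inhibitor of metalloproteinases, read 13.89, 14.17, 14.11 and 14.16 in Severe PE rats and 11.07, 11.38 and 11.22 in Vehicle rats (difference 2.86 ± 0.11, adjusted p = 0.00118). Vcan, the large proteoglycan versican, read 8.75, 9.25, 9.58 and 9.50 in Severe PE rats and 6.47, 6.96 and 5.82 in Vehicle rats (difference 2.85 ± 0.33, adjusted p = 0.011). Some proteases that cleave versican rose beside it, with differences of 2.56 ± 0.31 for Adamts4 (adjusted p = 0.0123), 1.83 ± 0.27 for Adamts1 (adjusted p = 0.0186) and 1.52 ± 0.22 for Adamts5 (adjusted p = 0.0186). With Timp1 they were the 4 changed members of a list of 21 measured metalloproteinases and inhibitors. Adamts9 and the Mmp genes of that list did not pass. Smoc2 (1.83 ± 0.09, adjusted p = 0.00265) and Chi3l1 (1.78 ± 0.06, adjusted p = 0.000802) had the smallest standard errors among the rises named in this paragraph. Spon2, spondin-2, a secreted matrix protein, was lower, with 8.57, 8.45, 8.53 and 8.09 in Severe PE rats and 11.82, 11.64 and 12.41 in Vehicle rats (difference -3.55 ± 0.22, adjusted p = 0.00348). Among 31 collagens, laminins and basement membrane genes none rose and 6 fell, and 25 had a negative difference (median -0.25). Those that fell were the laminin chains Lama3 (-1.09), Lama2 (-1.02) and Lamb2 (-0.65), the collagen chain Col4a5 (-1.03), perlecan, Hspg2 (-0.85), and agrin, Agrn (-0.85). Col4a1 read 13.27 to 13.52 in Severe PE rats and 13.15 to 13.33 in Vehicle rats, and Col1a1 differed by -0.78 ± 0.24 (adjusted p = 0.11). Of 22 integrins and matrix receptors Sgca (-1.13), Dag1 (-0.75), Itgb5 (-0.65) and Itga9 (-0.60) fell and none rose. In the basement membrane list 1 (without Severe PE rat 2) to 5 genes and in the integrin list 2 to 3 passed with 1 rat left out.

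Of 24 chaperones and folding enzymes of the endoplasmic reticulum 12 rose and none fell, 23 had a positive difference, and the median was 0.77. Hspa5, the master chaperone BiP, read 13.46, 13.82, 13.55 and 13.71 in Severe PE rats and 11.70, 12.28 and 12.44 in Vehicle rats (difference 1.5 ± 0.20, adjusted p = 0.0149). Sdf2l1, a partner of BiP, read 13.30, 12.97, 13.02 and 13.01 in Severe PE rats and 11.52, 11.38 and 11.29 in Vehicle rats (difference 1.68 ± 0.10, adjusted p = 0.00348). Dnajb11, another cofactor of BiP, read 11.32, 11.43, 11.11 and 11.44 in Severe PE rats and 9.77, 9.58 and 9.83 in Vehicle rats (difference 1.6 ± 0.11, adjusted p = 0.00413). The lowest Severe PE rat lay above the highest Vehicle rat by more than 1 log2 unit for each of these genes. Manf (1.32 ± 0.07, adjusted p = 0.00336), Creld2 (1.32 ± 0.11, adjusted p = 0.00601), Dnajc3 (1.30 ± 0.11, adjusted p = 0.00701), Hsp90b1 (0.96 ± 0.20, adjusted p = 0.0424) and the calcium-binding chaperone Calr (0.77 ± 0.06, adjusted p = 0.0052) rose, as did the disulfide isomerases Pdia3, Pdia4, Pdia6 and P4hb (0.73 to 1.09). The rise was not shared by all genes of the unfolded protein response: Herpud1 differed by -0.07, the transcription factor gene Xbp1 by 0.07 and Ddit3, the proapoptotic factor CHOP, by -0.25 ± 0.09. Of the 24 genes 9 to 10 passed with 1 rat left out.

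The bipartite endoplasmic reticulum stress element, CCAAT and CCACG separated by 9 bases, was searched on both strands in the 250 bases before the start of each gene. It was found before 8 of the 19 measured members with a promoter (42.1%), against 0.0765% of all 27457 promoters, and before 5 of the 9 that rose and had a promoter. The bare CCAAT box, which the element contains, was found before 19 of 19 and before 34.3% of all. Both shares describe letters and were not tested, and the list holds genes known as targets of this element. Stretches from RefSeq on GRCr8 are shown for members that rose and, in Xbp1, for a member with the element that did not pass the test. Each runs 5′ to 3′ on the gene's strand with the whole match in capitals, reversed where it lies on the other strand: Hspa5 at chr3:38452961-38453003 (plus), Hsp90b1 at chr7:23012335-23012481 (minus), Calr at chr19:40213123-40213165 (plus), Creld2 at chr7:121789227-121789269 (plus) and Xbp1 at chr14:84604546-84604588 (plus).
Hspa5: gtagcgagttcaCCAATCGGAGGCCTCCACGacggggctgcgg
Hsp90b1: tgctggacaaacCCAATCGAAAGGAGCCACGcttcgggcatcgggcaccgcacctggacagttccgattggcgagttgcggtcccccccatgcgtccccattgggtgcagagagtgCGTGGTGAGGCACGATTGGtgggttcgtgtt
Calr: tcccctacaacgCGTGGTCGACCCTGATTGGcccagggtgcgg
Creld2: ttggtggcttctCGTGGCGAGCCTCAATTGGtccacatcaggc
Xbp1: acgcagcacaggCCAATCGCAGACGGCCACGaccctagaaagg

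Of 29 genes of translocation into the endoplasmic reticulum and vesicle transport 9 rose and none fell (median 0.44), and 3 (without Vehicle rat 3) to 7 passed with 1 rat left out. Those that rose included the translocon subunit genes Ssr1 (0.87 ± 0.10, adjusted p = 0.0104), Ssr2 (0.86 ± 0.11, adjusted p = 0.0137) and Sec61b (0.62 ± 0.11, adjusted p = 0.0265) and the coat gene Sec23b (0.87 ± 0.07, adjusted p = 0.00653). Enzymes that make sugar precursors of glycoproteins rose in 4 of 21 cases, led by Ugdh, which makes the precursor of hyaluronan and other glycosaminoglycans. Ugdh read 11.31, 11.35, 11.41 and 11.51 in Severe PE rats and 9.68, 9.77 and 9.64 in Vehicle rats (difference 1.70 ± 0.07, adjusted p = 0.0015). Gmppb (1.32 ± 0.15, adjusted p = 0.0104), Gfpt2 (1.26 ± 0.22, adjusted p = 0.0261) and Nans (0.78 ± 0.06, adjusted p = 0.00581) were the others.

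**Figure D2:**
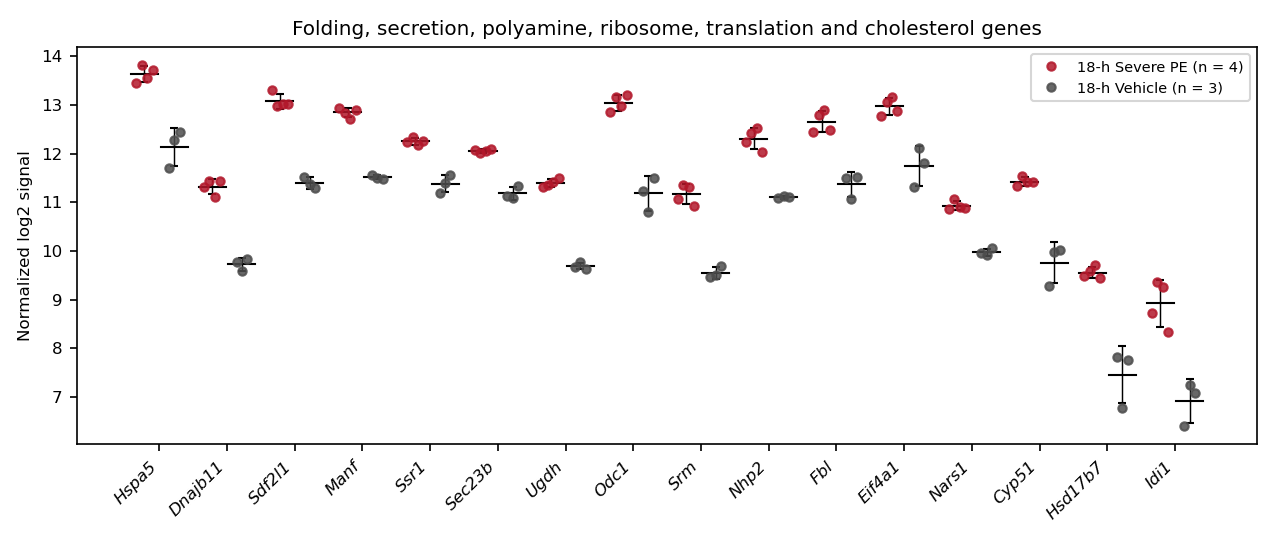
Normalized log2 signal of 16 genes of protein folding and secretion (Hspa5 to Sec23b), sugar precursor and polyamine synthesis (Ugdh to Srm), ribosome assembly and translation (Nhp2 to Nars1) and cholesterol synthesis (Cyp51 to Idi1), in 18-h Severe PE rats (red, left, n = 4) and 18-h Vehicle rats (grey, right, n = 3), with means as bars and 1 SD as error bars. All red points lie above all grey points of the same gene.

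Of 40 ribosome biogenesis factors 19 rose and none fell, and all 40 had a positive difference (median 0.77). Fbl, fibrillarin, the methyltransferase of ribosomal RNA, read 12.45, 12.80, 12.90 and 12.49 in Severe PE rats and 11.51, 11.06 and 11.53 in Vehicle rats (difference 1.29 ± 0.18, adjusted p = 0.0159). Nhp2, of the pseudouridine-forming particles, read 12.23, 12.43, 12.53 and 12.04 in Severe PE rats and 11.08, 11.14 and 11.10 in Vehicle rats (difference 1.20 ± 0.12, adjusted p = 0.00937). Mrto4 (1.37), Ebna1bp2 (1.33), Ddx21 (1.24) and Tsr1 (1.11) had differences of like size, and 7 (without Vehicle rat 3) to 18 of the 40 passed with 1 rat left out. Rpl4 (0.84) was the only changed gene among 21 measured ribosomal proteins, whose median was 0.07. Of 19 cytosolic aminoacyl-tRNA synthetases 8 rose and none fell (median 0.74). Nars1 read 10.87, 11.06, 10.90 and 10.89 in Severe PE rats and 9.95, 9.91 and 10.06 in Vehicle rats (difference 0.96 ± 0.07, adjusted p = 0.00473), and Tars1 (1.18 ± 0.15, adjusted p = 0.0137) and Yars1 (1.05 ± 0.10, adjusted p = 0.0074) had larger differences. Among 26 initiation factors 9 rose and none fell (median 0.54), with Eif4a1, the helicase of the cap-binding complex, at 12.77, 13.07, 13.16 and 12.88 in Severe PE rats and 11.31, 12.12 and 11.81 in Vehicle rats (difference 1.22 ± 0.21, adjusted p = 0.0256). Proteasome subunits had a positive difference in 32 of 32 cases (median 0.40), but only Psmd14 (1.15) and Psmc5 (0.62) were changed, and neither Rpl4 nor a proteasome gene passed without Vehicle rat 1. With 1 rat left out 4 (without Vehicle rat 3) to 7 synthetases and 2 (without Vehicle rat 3, Severe PE rat 2 or Severe PE rat 3) to 6 initiation factors passed.

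Genes that supply amino acids, polyamines and one-carbon units held some large rises. Slc7a1, the cationic amino acid transporter that imports arginine, read 10.70, 11.18, 11.19 and 11.17 in Severe PE rats and 9.27, 9.11 and 9.29 in Vehicle rats (difference 1.83 ± 0.14, adjusted p = 0.00581). Arginase, Arg1, which turns arginine into ornithine, read 9.68, 10.08, 9.93 and 9.90 in Severe PE rats and 8.20, 7.66 and 8.34 in Vehicle rats (difference 1.83 ± 0.19, adjusted p = 0.00918). Odc1, which turns ornithine into putrescine, read 12.85, 13.16, 12.98 and 13.20 in Severe PE rats and 11.24, 10.80 and 11.51 in Vehicle rats (difference 1.86 ± 0.19, adjusted p = 0.00848). The next enzymes of that pathway, Srm (1.61 ± 0.13, adjusted p = 0.00601) and Amd1 (0.99 ± 0.18, adjusted p = 0.0277), also rose, so that 4 of 15 polyamine and arginine genes were changed, all higher, while Sat1, which breaks polyamines down, differed by 0.30 ± 0.14. Slc7a5 (1.77 ± 0.18, adjusted p = 0.00923), Shmt2 (1.29 ± 0.13, adjusted p = 0.00843) and Slc1a5 (1.17 ± 0.20, adjusted p = 0.0246) were among 6 rises and 1 fall in 23 targets of the stress factor ATF4 and genes of serine and folate synthesis. Atf4 itself differed by 0.29 ± 0.09 (adjusted p = 0.11), and 4 to 6 members of this list passed with 1 rat left out. Aldh1l2, a mitochondrial folate enzyme, read 8.28, 8.81, 8.72 and 8.24 in Severe PE rats, against 6.19 in Vehicle rat 3 and the lowest possible value of 4 in Vehicle rats 1 and 2 (difference 3.78 ± 0.59, adjusted p = 0.0208), so that its 13.8-fold difference depends on the floor.

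Cholesterol synthesis was among the groups in which most members rose, with 11 of 17 higher, none lower and a median of 0.87. Hsd17b7, which also makes estradiol, read 9.48, 9.58, 9.71 and 9.45 in Severe PE rats and 7.82, 6.78 and 7.77 in Vehicle rats (difference 2.09 ± 0.27, adjusted p = 0.0145). Idi1, which makes dimethylallyl diphosphate, read 8.73, 9.36, 9.27 and 8.34 in Severe PE rats and 6.4, 7.25 and 7.09 in Vehicle rats (difference 2.01 ± 0.33, adjusted p = 0.024). Cyp51, lanosterol demethylase, read 11.33, 11.55, 11.41 and 11.41 in Severe PE rats and 9.28, 9.98 and 10.02 in Vehicle rats (difference 1.67 ± 0.20, adjusted p = 0.0115). The enzymes lay along the pathway from isoprene units to the last reduction: Mvd (1.21), Fdps (0.87), Fdft1 (0.60), Sqle (1.40), Msmo1 (1.03), Nsdhl (0.86) and Dhcr7 (0.99) rose as well, with adjusted p between 0.00408 for Fdps and 0.0459 for Fdft1, as did Acat2 (0.71), at the first step (adjusted p = 0.025). Mvk (0.15), Sc5d (0.32) and Ebp (0.06) did not pass. Of the 17 enzymes 6 to 8 passed with 1 rat left out. The uptake and efflux genes moved in both directions, with 4 of 16 higher and 4 lower (3, without Vehicle rat 3, to 6 passed with 1 rat left out). The cholesterol hydroxylase Ch25h (2.16 ± 0.29, adjusted p = 0.0152), the esterifying enzyme Soat1 (1.26 ± 0.18, adjusted p = 0.0181), Lrp8 (0.89) and Insig1 (0.87) rose, whereas the liver X receptor targets Mylip (-1.18 ± 0.18, adjusted p = 0.0197), Abca1 (-0.96 ± 0.09, adjusted p = 0.00843), Abcg1 (-0.88 ± 0.16, adjusted p = 0.0302) and Apoe (-0.83) fell. Hsd17b12 rose by 1.41 ± 0.16 (adjusted p = 0.0104). A sterol response element (TCACNCCAC, either strand, 250 bases) was found before none of 14 measured synthesis genes with a promoter and before 0.976% of all promoters, and CCAAT before 11 of the 14.

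**Figure D3:**
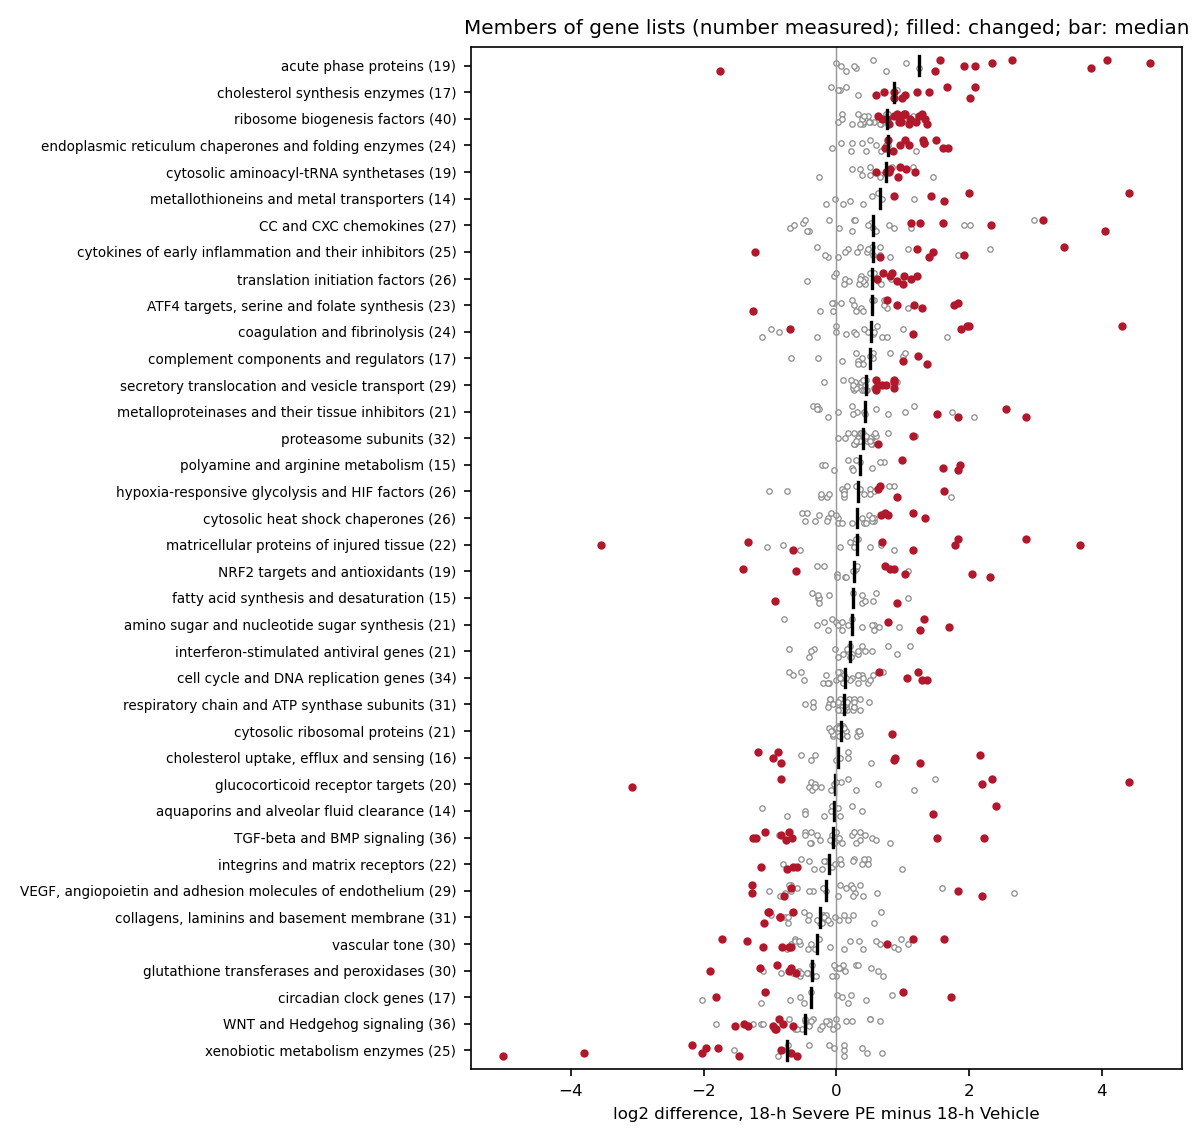
Difference of each measured member, 18-h Severe PE minus 18-h Vehicle (log2, horizontal axis), in 38 gene lists sorted by their median (black bar), with the number measured in parentheses. Filled red points are genes counted as changed and open points are the others. Acute phase proteins have the highest median (1.24) and xenobiotic metabolism enzymes the lowest (-0.75).

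Of 25 measured enzymes that process foreign compounds 10 fell and none rose, with a median of -0.75. Cyp1a1, the aryl hydrocarbon hydroxylase, was among them, with 5.35 and 7.5 in Severe PE rats 2 and 4 and the lowest possible value of 4 in rats 1 and 3, against 10.01, 10.03 and 10.68 in Vehicle rats (difference -5.02 ± 0.92, adjusted p = 0.0298). Aox1, aldehyde oxidase, read 6.4 and 5.38 in Severe PE rats 2 and 3 and 4 in rats 1 and 4, against 9.86, 7.58 and 8.79 in Vehicle rats (difference -3.80 ± 0.82, adjusted p = 0.0442). The sizes of both differences, and their ranks, are set in part by the floor, since 2 Severe PE rats of each gene lay at it. Cyp2f4, a cytochrome of club cells, read 8.95, 8.93, 9.50 and 9.78 in Severe PE rats and 11.14, 12.07 and 11.19 in Vehicle rats (difference -2.18 ± 0.33, adjusted p = 0.0196). Cyp2a3 (-2.03 ± 0.24, adjusted p = 0.0119), Aldh3a1 (-1.97 ± 0.34, adjusted p = 0.0259), Cyp2s1 (-1.78 ± 0.23, adjusted p = 0.0137) and Fmo1 (-1.47) followed. The abundant lung cytochrome Cyp4b1 fell least among the changed cytochromes, by 0.69 ± 0.06 (adjusted p = 0.00772). Of 30 glutathione transferases, peroxidases and related enzymes 6 fell and none rose, led by Gstm7 (-1.91 ± 0.22, adjusted p = 0.0107) and Gsta4 (-1.15 ± 0.21, adjusted p = 0.0297). Members of the glutathione transferase families are near copies of each other, and their probes may not separate them. A list of targets of the antioxidant factor NRF2 and of other antioxidant genes did not move as a block, with 6 of 19 higher and 2 lower. Sod2, mitochondrial superoxide dismutase, read 12.66, 13.05, 12.97 and 12.77 in Severe PE rats and 10.79, 10.25 and 10.62 in Vehicle rats (difference 2.31 ± 0.16, adjusted p = 0.00466). Its extracellular counterpart Sod3 was lower, with 10.26, 10.27, 10.11 and 10.58 in Severe PE rats and 11.75, 11.72 and 11.70 in Vehicle rats (difference -1.41 ± 0.12, adjusted p = 0.00591), and Nqo1 fell by 0.61. With 1 rat left out 4 (without Vehicle rat 3 or Severe PE rat 3) to 8 xenobiotic enzymes and 2 (without the same rats) to 5 glutathione genes passed. Of the list of NRF2 targets and antioxidant genes 4 (without Vehicle rat 3) to 6 passed.

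Other large falls came from genes of unlike function. Hsd11b2, which inactivates corticosterone, read 4.65, 6.01 and 5.70 in Severe PE rats 1 to 3 and 4 in rat 4, against 7.68, 8.11 and 8.72 in Vehicle rats (difference -3.08 ± 0.56, adjusted p = 0.0293). Abca8, a lipid transporter, read 5.21, 5.33, 5.08 and 5.59 in Severe PE rats and 7.62, 8.43 and 8.33 in Vehicle rats (difference -2.82 ± 0.23, adjusted p = 0.00601). Cldn11, a tight junction protein, read 6.88, 8.03, 7.31 and 7.05 in Severe PE rats and 10.16, 9.73 and 10.39 in Vehicle rats (difference -2.78 ± 0.32, adjusted p = 0.0108). Chodl (-3.03 ± 0.44, adjusted p = 0.0178), Mamdc2 (-3.03 ± 0.29, adjusted p = 0.00807), the ciliary rootlet gene Crocc (-2.94 ± 0.34, adjusted p = 0.0113), Prss35 (-2.73 ± 0.36, adjusted p = 0.0149), the apolipoprotein gene Apoc1 (-2.68 ± 0.54, adjusted p = 0.0371) and Tlcd3b (-2.63 ± 0.16, adjusted p = 0.00348) completed the 12 largest falls. Crocc was at the floor in 2 Severe PE rats, Tlcd3b in 3, and Hsd11b2, Prss35 and Apoc1 in 1 each, so that these differences are limited by the floor. Steap1, a metalloreductase of the cell surface, was the remaining gene among the 12 largest rises, with 9.47, 9.59, 9.87 and 9.30 in Severe PE rats and 5.84, 6.53 and 6.22 in Vehicle rats (difference 3.36 ± 0.21, adjusted p = 0.00348).

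Of 36 WNT and Hedgehog genes 9 fell and none rose (median -0.48). Axin2, a direct target of WNT signals, read 8.48, 8.24, 8.25 and 8.35 in Severe PE rats and 9.30, 10.00 and 9.88 in Vehicle rats (difference -1.40 ± 0.18, adjusted p = 0.0145). The receptor gene Fzd8 (-1.53 ± 0.13, adjusted p = 0.00686), the secreted inhibitor gene Wif1 (-1.33 ± 0.21, adjusted p = 0.0218), the receptor gene Fzd1 (-0.96 ± 0.13, adjusted p = 0.0149), Tcf7l1 (-0.93), Wnt2b (-0.91) and Smo (-0.87) were among the others that fell. In 36 genes of TGF-β and BMP signaling 2 rose and 7 fell. Inhba, the activin A subunit, read 7.45, 7.98, 8.41 and 7.64 in Severe PE rats and 5.56, 5.86 and 5.52 in Vehicle rats (difference 2.22 ± 0.25, adjusted p = 0.0104), and Fst, follistatin, which binds activin, rose by 1.51 ± 0.17 (adjusted p = 0.0108). The falls included genes of the BMP branch, with -1.26 ± 0.25 for Smad9 (adjusted p = 0.0353), -1.21 ± 0.19 for the ligand gene Bmp6 (adjusted p = 0.0203), -1.08 ± 0.19 for the endothelial receptor gene Acvrl1 (adjusted p = 0.0263) and -0.76 for its partner Eng, beside Smad3 (-0.67), Fstl1 (-0.71) and Ltbp2 (-0.83). Bmpr2, the receptor mutated in hereditary pulmonary hypertension, differed by 0.24 ± 0.62, and the Vehicle rats alone spread between 8.88 and 10.91. With 1 rat left out 3 (without Severe PE rat 2) to 7 genes of the WNT and Hedgehog list and 2 (without Vehicle rat 3) to 7 of the TGF-β and BMP list passed.

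Genes of vascular tone gave 3 rises and 6 falls among 30. Adrenomedullin, Adm, a vasodilator peptide, read 9.97, 10.56, 9.58 and 9.94 in Severe PE rats and 8.48, 7.92 and 8.79 in Vehicle rats (difference 1.62 ± 0.30, adjusted p = 0.0303), while the receptor subunit genes Ramp1 (-1.35 ± 0.28, adjusted p = 0.0396) and Ramp2 (-0.82 ± 0.12, adjusted p = 0.0184) fell. Nos3, endothelial nitric oxide synthase, read 9.41, 9.17, 8.76 and 9.48 in Severe PE rats and 8.26, 8.09 and 7.80 in Vehicle rats (difference 1.16 ± 0.21, adjusted p = 0.0293). Tbxa2r, the thromboxane receptor, read 6.24, 5.71, 6.43 and 6.69 in Severe PE rats and 8.14, 8.00 and 7.84 in Vehicle rats (difference -1.73 ± 0.24, adjusted p = 0.0165). Endothelin-1, Edn1, did not differ beyond its spread (0.21 ± 0.17, adjusted p = 0.515). Selp, P-selectin, which captures leukocytes, read 9.53, 10.32, 10.18 and 9.26 in Severe PE rats and 7.91, 8.22 and 7.84 in Vehicle rats (difference 1.83 ± 0.29, adjusted p = 0.0226). Vegfa differed by -1.02 ± 0.24 (adjusted p = 0.0537) and its receptor gene Kdr by -0.85 ± 0.20 (adjusted p = 0.0527), both just short of the threshold. Among 26 genes of glycolysis and the hypoxia-inducible factors, Hif1a (0.63), Ldha (0.92), Eno1 (0.65) and Adm rose and none fell. Aqp3 (2.41 ± 0.51, adjusted p = 0.0435) and the sodium pump subunit gene Atp1b1 (1.45 ± 0.17, adjusted p = 0.0119) were the changed members of 14 genes of alveolar fluid clearance. None of 31 respiratory chain and ATP synthase subunits was changed by limma or by the methods' t-test (median 0.11), and 9 had an unadjusted p under 0.05. With 1 rat left out 1 (without Vehicle rat 2) to 7 genes of vascular tone, 2 to 4 of the hypoxia list and 1 to 2 of fluid clearance passed.

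In the cell cycle list 5 of 34 genes rose (14.7%, against 9.9% of all genes changed), and they were genes of DNA replication and of its onset. Mcm6 read 9.28, 9.79, 9.58 and 9.27 in Severe PE rats and 8.22, 8.25 and 8.29 in Vehicle rats (difference 1.23 ± 0.15, adjusted p = 0.0115), and the other helicase subunit genes Mcm4 (1.37) and Mcm5 (1.07), the G1 cyclin gene Ccne1 (1.29) and the clamp gene Pcna (0.64) rose. The proliferation and mitosis genes Mki67, Top2a and Cdk1 did not pass, with Mki67 at 0.55 ± 0.32, Top2a at 0.70 ± 0.22 and Cdk1 at 0.03 ± 0.25. Of this list 1 to 4 genes passed with 1 rat left out. Among 17 clock genes Nr1d1 (-1.81) and Tef (-1.08) fell and Bhlhe40 (1.73) and Bhlhe41 (1.01) rose, and 1 to 4 of the list passed with 1 rat left out. Of 20 glucocorticoid receptor targets 3 rose, which were Mt2A, Lcn2 and Angptl4 (2.20 ± 0.37, adjusted p = 0.0241), and 2 fell, which were Hsd11b2 and Cdkn1c (-0.84 ± 0.13, adjusted p = 0.0193), and 1 (without Vehicle rat 2) to 4 passed with 1 rat left out. The targets Fkbp5 (1.48 ± 0.43, adjusted p = 0.0925), Tsc22d3 (-0.23 ± 0.55) and Per1 (0.17 ± 0.45) did not pass, and Severe PE rat 4 was the highest of its group for all 3, with 11.65, 13.16 and 9.67.

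Of 17 endothelial markers 8 fell and none rose (median -0.76), and the summed linear signal of the list was 67900 to 81800 in Severe PE rats and 112000 to 119000 in Vehicle rats. Car4, of capillary endothelium, read 10.14, 10.46, 9.86 and 8.98 in Severe PE rats and 11.70, 11.94 and 11.81 in Vehicle rats (difference -1.96 ± 0.35, adjusted p = 0.0288). Plvap, the diaphragm protein of fenestrae and caveolae, fell by 1.08 ± 0.12 (adjusted p = 0.0106), and Sox18 (-1.08), Emcn (-0.88), Ramp2, Tie1 (-0.79), Eng and Vwf were the other falls, but the general markers Pecam1 (-0.16 ± 0.22) and Cldn5 (-0.33 ± 0.21) did not pass. Fits with 1 rat left out called 2 (without any of the Vehicle rats or Severe PE rat 3) to 8 endothelial, 1 to 2 alveolar type I and 0 to 1 alveolar type II markers. The changes of Acvrl1, Bmp6, Kdr and Tbxa2r above were read in the same extracts, and the part of endothelial cell number in them was not tested. All 11 measured alveolar type I markers had a negative difference (median -0.67, summed signal 54500 to 65400 in Severe PE rats and 81900 to 90700 in Vehicle rats), of which Cav1 (-0.71) and Gprc5a (-0.67) were counted as changed, while Ager (-0.52 ± 0.05, adjusted p = 0.00923) passed the test but fell short of 1.5-fold. Type II markers were split, with Lamp3 higher (1.05 ± 0.22, adjusted p = 0.0399), Etv5 lower (-0.98 ± 0.20, adjusted p = 0.0381) and Sftpc (-0.22) and Sftpb (0.05) not passing (summed signal 173000 to 183000 in Severe PE rats and 164000 to 178000 in Vehicle rats). Fibroblast markers gave 3 falls of 17 (median -0.35), with Inmt at -2.37 and Mfap5 at -1.54. A positive difference was found for 6 of the 17, the largest that of Dcn (1.14), which did not pass. With 1 rat left out 1 to 3 fibroblast markers passed.

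Of 16 T lymphocyte markers Zap70 (-1.08), Lck (-1.04) and Cd3g (-0.95) fell, none rose and the median was -0.67 (summed signal 5910 to 9600 in Severe PE rats and 12100 to 14300 in Vehicle rats). Cd3e read 9.22, 9.14, 9.81 and 8.82 in Severe PE rats and 10.09, 10.38 and 10.23 in Vehicle rats (difference -0.99 ± 0.24, adjusted p = 0.0596). B lymphocyte markers had a median of -0.89, with Cd79b (-1.21 ± 0.18, adjusted p = 0.0184) and Fcrla (-1.18) lower (summed signal 4720 to 6510 in Severe PE rats and 9540 to 11000 in Vehicle rats), and mast cell markers a median of -1.02, with Hdc (-1.38), Gata2 (-1.02) and Kit (-0.66) lower (summed signal 2310 to 3390 in Severe PE rats and 4050 to 6110 in Vehicle rats). When 1 rat was left out, limma called 0 T lymphocyte markers (5 without Severe PE rat 3), 0 (without Vehicle rat 2) to 2 B lymphocyte markers and 0 (without Severe PE rat 2, 3 or 4) to 2 mast cell markers. None of 14 natural killer markers passed by limma or by the methods' t-test, 5 had an unadjusted p under 0.05, and 13 of 14 were negative (median -0.53).

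Myeloid markers gave higher medians but few changed genes. Neutrophil markers had a median of 0.88, and Lcn2, which epithelial cells also make, was the only changed gene of 9 (11.1%, against 9.9% of all genes). The summed signal of the list was 46600 to 65500 in Severe PE rats and 21700 to 28000 in Vehicle rats. Lcn2 held a large part of that difference, and the sum without Lcn2 was not examined. S100a8, a calprotectin subunit, read 12.61, 12.48, 12.38 and 13.59 in Severe PE rats and 12.70, 11.53 and 11.41 in Vehicle rats, so that Vehicle rat 1 lay above 3 Severe PE rats. Vehicle rat 1 was also the highest Vehicle rat for S100a9 (14.02 against 13.11 and 13.13), and Severe PE rat 4 the highest of its group (14.41). Monocyte and tissue macrophage markers had a median of 0.55, with Ms4a6a (2.16 ± 0.23, adjusted p = 0.00999), the hemoglobin scavenger receptor gene Cd163 (2.07 ± 0.44, adjusted p = 0.044) and Cd14 (1.18 ± 0.19, adjusted p = 0.0226) higher, whereas Csf1r differed by -0.33 ± 0.24 and C1qa by 0.38 ± 0.11. Among 11 alveolar macrophage markers Chi3l1 (1.78), Fabp5 (1.23 ± 0.07, adjusted p = 0.00336) and Gpnmb (1.14) rose and Car4, which endothelium also makes, fell, and 2 to 5 of the list passed with 1 rat left out, as did 1 to 4 of the monocyte and tissue macrophage list and, for Lcn2 among neutrophil markers, 0 in every such fit but that without Vehicle rat 1. The inflammatory genes named above were read in the same extracts, and the part of myeloid cell number in their rises was not tested. Of 10 erythroid and platelet markers none passed by limma or by the methods' t-test and 1 had an unadjusted p under 0.05.

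**Figure D4:**
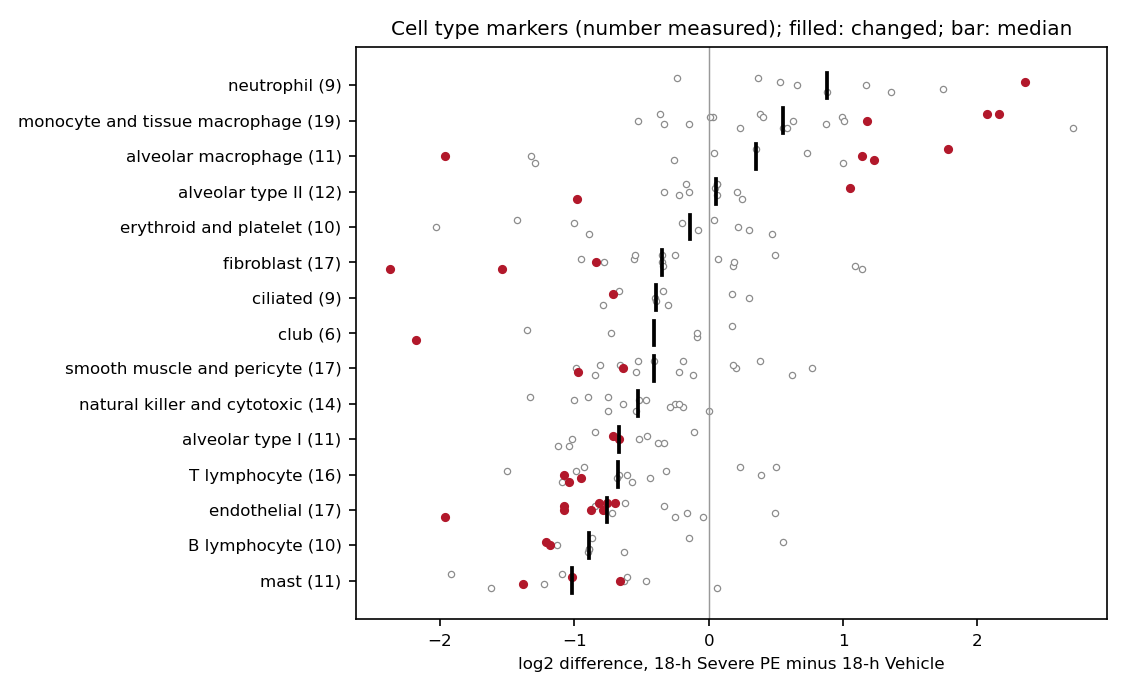
Difference of each measured marker, 18-h Severe PE minus 18-h Vehicle (log2, horizontal axis), in 15 cell type lists sorted by their median (black bar), with the number measured in parentheses. Filled red points are markers counted as changed. Neutrophil markers have the highest median (0.88) and mast cell markers the lowest (-1.02).

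The dependence on dose was examined by setting the 18-h Severe PE rats directly against the 18-h Mild PE rats. With the 8 arrays of the comparison in the fit, no gene was changed by limma or by the methods' t-test (0 of 14217, 0%), although 1143 genes were higher and 1317 lower in Severe PE at an unadjusted p under 0.05, and the smallest adjusted p was 0.0731. This count depends on the fit: limma called 326 probesets with all 22 arrays in the fit, 80 without Mild PE rat 4, whose 5′ signal was low, and 19 among probesets brighter than the median. The median half-width of the 95% interval was 0.37, without adjustment for the number of genes. Passing after adjustment needed a smaller p than an interval without 0 does. For many genes differences larger than this half-width could therefore go undetected, and the absence of changed genes does not exclude them. Against the same 3 Vehicle rats, 1408 genes (9.9%) were changed by Severe PE and 204 (1.43%, 0.76% higher and 0.675% lower) by Mild PE, counts which share their Vehicle arrays. The genes with the smallest p in the direct comparison were Hm13, a signal peptide peptidase, Spdef, a factor of mucous cells, Mfsd10, Thbs3 and Alcam on the higher side, and Zhx2, Lrch3, Atxn1l, Sun2 and Cidea on the lower. Hm13 read 11.18, 11.21 and 11.64 in Vehicle rats, 11.41, 11.42, 11.26 and 11.26 in Mild PE rats and 12.22, 12.15, 12.05 and 12.05 in Severe PE rats (Severe PE minus Mild PE 0.78, 95% interval 0.63 to 0.94). Zhx2 was lower in Severe PE than in Mild PE by 0.67 (interval -0.83 to -0.51), but the Vehicle rats spread from 9.12 to 10.48. Spdef differed from Vehicle by 0.44 in Severe PE and by -0.53 in Mild PE rats, and Thbs3 by 0.28 in Severe PE and by -0.63 in Mild PE rats, with none of these differences counted as changed.

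The values at both doses are given for some of the genes described above, none of which passed between the doses after adjustment in the fit of 8 arrays. Orm1 averaged 6.94 ± 0.26 in Vehicle, 7.85 ± 0.64 in Mild PE and 10.77 ± 0.57 in Severe PE rats (SD, n = 3, 4 and 4), and the Severe PE mean lay 2.92 above the Mild PE mean (interval 1.96 to 3.87, unadjusted p = 0.000193, adjusted p = 0.0944 by limma). Slc39a8 lay 2.00 above Vehicle in Severe PE and 0.89 in Mild PE, with a difference between the doses of 1.11 (interval 0.77 to 1.46), and Arg1 lay 1.83 above Vehicle in Severe PE and 0.46 in Mild PE, with 1.37 between the doses (interval 0.90 to 1.83). Cfi lay 1.23 above Vehicle in Severe PE and 0.25 in Mild PE, with 0.97 between the doses (interval 0.67 to 1.28). On the lower side Prss35 differed from Vehicle by -2.73 in Severe PE and by -0.25 in Mild PE (interval between the doses -3.42 to -1.55), and Aox1 by -3.80 in Severe PE and by -0.45 in Mild PE (interval -4.77 to -1.93). These intervals are not adjusted for the number of genes or for how the genes were chosen, so an interval without 0 is a description only. For other genes the interval included 0. Ccl2 lay 4.05 above Vehicle in Severe PE and 4.76 in Mild PE (interval between the doses -2.27 to 0.86), a wide interval. Il6 lay 3.43 above Vehicle in Severe PE and 3.49 in Mild PE (interval -1.47 to 1.34), Adamts4 2.56 in both (interval -0.29 to 0.30) and Ch25h 2.16 in Severe PE and 2.03 in Mild PE (interval -0.49 to 0.75). Cyp1a1 was at the lowest possible value in all 4 Mild PE rats.

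**Figure D5:**
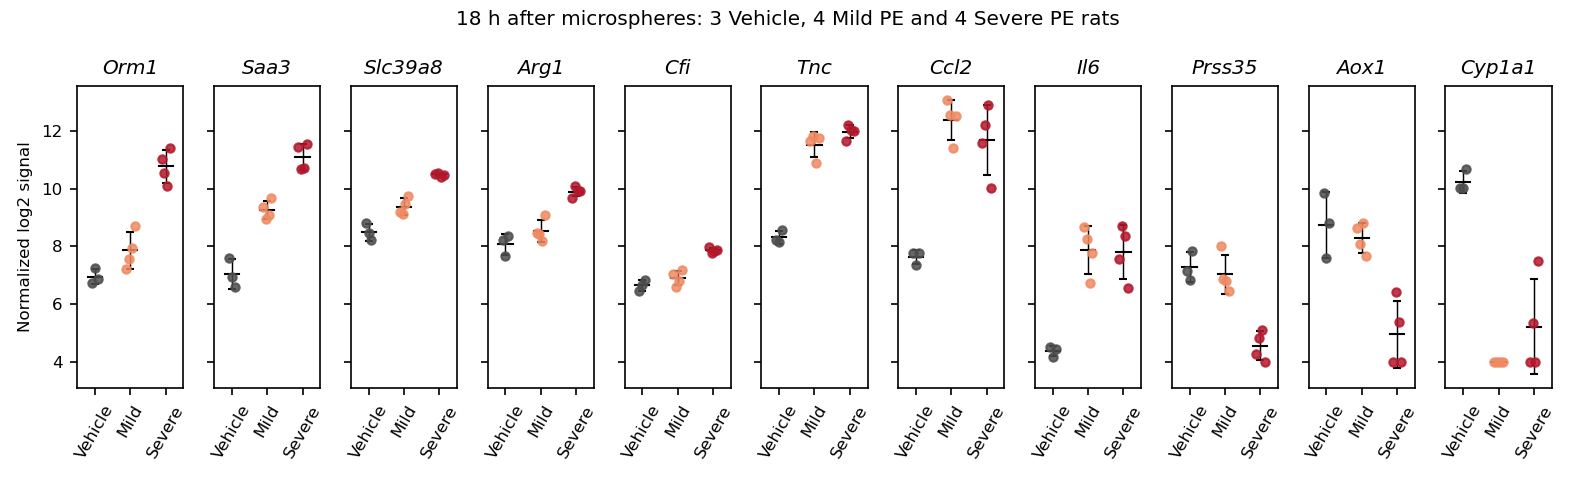
Normalized log2 signal of 11 genes at 18 h in Vehicle (grey, n = 3), Mild PE (orange, n = 4) and Severe PE (red, n = 4) rats, with means as bars and 1 SD as error bars. Orm1, Saa3, Slc39a8, Arg1 and Cfi were highest in Severe PE rats, while the Mild PE and Severe PE points of Tnc, Ccl2 and Il6 overlap.

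The Severe PE effect was set against that of the same dose at 2 h by a contrast of the 4 groups in a model of all 22 arrays. The effect differed between the times for 1169 genes (8.22%), 478 more positive (3.36%) and 691 more negative (4.86%) at 18 h, and for 5.73% of all probesets (2.49% more positive and 3.24% more negative). Over probesets the count was 1778, but 974 with only the 4 groups in the fit and 3085 when the array of low 5′ signal at 2 h, that of Severe PE rat 1, was left out. At 2 h itself, in a fit of its own 7 arrays, 6 genes (0.0422%) were changed. The 5 largest differences of effect on the positive side were those of Serpina3n (5.23 ± 1.03, adjusted p = 0.00609), Acot1 (4.17 ± 1.08, adjusted p = 0.0285), Orm1 (3.55 ± 0.50, adjusted p = 0.000762), Tnc (3.41 ± 0.43, adjusted p = 0.000369) and Mt2A (3.36 ± 0.59, adjusted p = 0.00291). Those on the negative side, of which Cyp1a1, Aox1 and Crocc are set in part by the floor, were Cyp1a1 (-4.88 ± 1.17, adjusted p = 0.0191), Aox1 (-3.91 ± 0.78, adjusted p = 0.00632), Chodl (-3.71 ± 0.60, adjusted p = 0.00181), Spon2 (-3.48 ± 0.48, adjusted p = 0.000668) and Crocc (-3.23 ± 0.90, adjusted p = 0.0415). Tnc, for example, averaged 9.92 ± 0.70 in 2-h Severe PE and 9.66 ± 0.39 in 2-h Vehicle rats (SD, n = 4 and 3). At 18 h it averaged 11.98 ± 0.23 in Severe PE and 8.31 ± 0.22 in Vehicle rats. Its Vehicle mean was thus lower at 18 h than at 2 h, and the difference of effects includes that gap. Acot1, an acyl-CoA thioesterase induced by fasting in rodents, was not changed at 18 h itself (2.83 ± 0.92, adjusted p = 0.121), and Vehicle rat 1 read 10.18 and the other Vehicle rats 6.73. Among the lists, the difference between times passed, with the effect more positive at 18 h, for 12 of 24 endoplasmic reticulum chaperones, 12 of 40 ribosome biogenesis factors, 8 of 17 cholesterol synthesis enzymes and 6 of 19 acute phase genes. The effect was more negative at 18 h for 8 of 25 xenobiotic enzymes, 7 of 31 collagens, laminins and basement membrane genes, 7 of 36 WNT and Hedgehog genes, 6 of 36 TGF-β and BMP genes and 1 endoplasmic reticulum chaperone. Chemokines had a median effect of 0.55 at 18 h and 0.29 at 2 h. Ccl2 had effects of 4.05 at 18 h and 4.17 at 2 h, Il6 of 3.43 at 18 h and 3.98 at 2 h, Tnf of 1.46 at 18 h and 2.42 at 2 h, Cxcl2 of 2.33 at 18 h and 3.18 at 2 h, and Ch25h of 2.16 at 18 h and 2.25 at 2 h. None of these 5 effects passed at 2 h (adjusted p between 0.0882 for Cxcl2 and 0.211 for Il6), and none of their differences between the times passed (adjusted p between 0.207 for Tnf and 0.978 for Ccl2). The effects on Hspa5 (0.14), Odc1 (0.29), Hsd17b7 (-0.07) and Orm1 (0.28) at 2 h were all under 0.30.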

How the data were processed

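The deposited table holds 1 linear signal intensity per probeset and array, which the authors had scaled so that the trimmed mean (2% left out at each end) was the same on every array. These are not the GC-RMA log2 values that the methods describe, and how probes were summarised into them is not given in the sources used here. Intensities under 16 were set to 16, the 57 array controls were removed, and log2 values of all 22 arrays were brought to 1 distribution by quantile normalization. Groups were compared with limma 3.58.1 in R 4.3.3 (lmFit and eBayes). The main comparison used its 7 arrays, the dose comparison its 8 and the time contrast all 22. P-values were adjusted by Benjamini-Hochberg over 31042 probesets. The platform annotation gave 1 symbol to 20826 probesets, several to 436 and none to 9780. Each of 14217 genes was read from its probeset of highest mean. Of 478 changed genes with more than 1 probeset, 76 had all their probesets changed the same way and 3 had a probeset changed the other way. In the others at least 1 further probeset was not counted as changed. Gene lists were described by counts and medians without a test.

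Genes were named by a fixed rule: the 12 largest rises and falls among changed genes without overlap, the first 3 measured members and up to 6 changed members of each list, the 5 largest differences between times and the 5 smallest p of the dose comparison in each direction, and genes of sterol synthesis that the study discusses. Not every gene the rule allows is printed, and some further genes were named after their values were seen. The members and lists were chosen with earlier results of these data known. Promoters of 27457 genes came from RefSeq on GRCr8. The limma steps were tested on simulated data. Each rat gave 1 array, and the number of arrays, not counting error, limits the precision.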

Additional observations from a re-analysis of the deposited data

Results flagged for a closer look

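In groups of 4 rats, 1 rat of the 18-h Severe PE group was far from the other 3, relative to the range of the group, for 17 of 261 named genes. Chance flags about 1 in 20 groups. The rule ignores the size of the distance, which was small for genes such as Mvk and Sftpb. Severe PE rat 4 was low for Ch25h (10.25, others 11.06 to 11.18), Csf1r (10.92, others 11.69 to 11.77) and Ramp1 (8.42, others 9.37 to 9.39), and high for Soat1 (11.91, others 11.31 to 11.32) and Tcf7l1 (9.31, others 9.16 to 9.18). Severe PE rat 1 was low for Hp (10.37, others 11.63 to 11.82), Nr1d1 (5.82, others 6.58 to 6.61), Slc7a1 (10.70, others 11.17 to 11.19) and Psmc5 (11.28, others 11.61 to 11.65). It was high for Abcg1 (12.01, others 11.46 to 11.55), Fzd8 (9.56, others 9.14 to 9.18) and Kit (7.80, others 7.59 to 7.62). Severe PE rat 2 was low for Fcrla (9.09, others 9.79 to 9.88) and Mvk (9.21, others 9.24 to 9.25) and high for Nars1 (11.06, others 10.87 to 10.90) and Tlcd3b (4.48, others at the lowest possible value of 4). Severe PE rat 3 was low for Sftpb (14.56, others 14.62 to 14.63).

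The Severe PE effect differed between 18 h and 2 h, by the contrast that tests this difference itself, for 1778 probesets. Among them were Serpina3n (5.23), Acot1 (4.17), Orm1 (3.55), Tnc (3.41) and Mt2A (3.36), with a more positive effect at 18 h, and Cyp1a1 (-4.88), Aox1 (-3.91), Chodl (-3.71), Spon2 (-3.48) and Crocc (-3.23), with a more negative one.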

How the results depend on the processing

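Over all probesets 2212 were changed in 18-h Severe PE against 18-h Vehicle, 1778 in the contrast of 18 h with 2 h and 0 in 18-h Severe PE against 18-h Mild PE. The first count was 1075 with a floor of 1, 1218 by the methods' t-test, 3838 with all 22 arrays in the fit and 1311 without arrays of low 5′ signal, an alternative whose limit (β-actin 3′ minus 5′ above 1.1) was set after seeing the data and which here leaves out Vehicle rat 1. Leaving out 1 rat at a time gave 980 (Severe PE rat 2) to 1566 (Severe PE rat 4). The contrast of times gave 977 with quantile normalization of its own arrays, 974 with its 4 groups alone in the fit and 1242 to 3085 with 1 rat left out, the highest without 2-h Severe PE rat 1. Median centring gave 1587, of which 36.5% were more positive at 18 h, against 43.5% before. The dose comparison gave 5 with a floor of 64, 19 with only probesets brighter than the median, 326 with all 22 arrays, 80 without arrays of low 5′ signal and 0 to 80 with 1 rat left out, the highest without Mild PE rat 4. The causes of these shifts were not tested.

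With the replicate number of the labels as a replicate block, 0 probesets were changed in the main comparison (limma, 6699 at an unadjusted p under 0.05), 1458 in the contrast of times and 0 between doses. Rats with the same number did not deviate together (correlations of -0.055, 0.016 and 0.014). These few correlations cannot show that such rats share only a number, and whether they were handled together was not tested. In the main comparison the block adds parameters to a fit of few arrays, which lowers its power. Its count of 0 therefore cannot decide whether the replicate number bears on the changed genes.

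Of the 205 changed genes named here, 108 to 148 stayed changed with 1 rat left out, 141 with a floor of 1, 134 by the methods' t-test and 0 with the replicate block. Of the 189 that were among probesets brighter than the median, 189 stayed changed there. That fit used the same values and adjusted over fewer probesets, so it is a weak check. With 3 and 4 arrays a group, small differences and genes near the floor cannot be resolved.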
